A study of Mus musculus with 23 samples.

Results

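The comparison was of OVA challenge in the lungs of mice born to saline-exposed dams. It held 12 of the 23 RNA-Seq libraries of the series: 5 from offspring with ovalbumin (OVA)-induced allergic airway disease (Sham-OVA) and 7 from unchallenged offspring (Sham). The libraries were chosen by the treatment in their labels, developmental saline followed by either OVA or PBS. All were made from Balb/c offspring aged 13 weeks, described by the series as female, and no animal in either group had a mother exposed to PM2.5. Sham-OVA offspring had been sensitised to OVA, a chicken egg protein, by injection with aluminium hydroxide and were later given OVA as an aerosol, whereas the labels name PBS, and the methods of the study nebulised saline, for the controls. Lung is the tissue in the labels, with RML beside it, whereas the methods name the right lower lobe. The dams and litters of the mice are not named in the labels, so the spread between libraries, on which every p-value rests, may include littermates. Of 35322 genes listed, 16257 were tested, those that reached 0.5 RPM (the reads of a gene scaled to 1000000 reads of its library) in 4 or more of these 12 libraries. Some genes passed only because of the group where they were high, so their direction and their part in list counts were partly set by the filter. Any p-values printed for these genes are descriptions, not tests of a change. Among them were Tff1, Tff2, Agr2, Retnlb, Chil4, Cxcl9, Ccr3, Ccr10, Il5, Il10, Rnase2a, Prg2, Epx, Cebpe, Tpsab1, Mcpt2, Mcpt8, Pdcd1lg2, Ptgdr, Duox1 and Ube2c through Sham-OVA. Through Sham they included Ccr6, Klf4, Anxa11, Usp9x, Cgn, Kdm2b, Marco and Myh6.

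In this form of allergic airway disease, sensitised CD4 T cells release interleukin-4, interleukin-5 and interleukin-13 when the allergen reaches the airway. Interleukin-13 and interleukin-4 act through the transcription factor STAT6 on airway epithelium, where secretory cells turn into mucus-producing goblet cells, and on macrophages, which take up an alternatively activated state. Interleukin-5 supports eosinophils, eotaxins (CC chemokines) bring them into tissue, and B cells that mature into plasma cells make the antibodies that arm mast cells.

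On the deposited scale more genes were lower than higher after challenge, but the largest changes were rises. By the threshold of the study, which asks for an adjusted p below 0.000001 and a log2 fold change beyond 1 in either direction (here from limma on log2(RPM + 0.5), with Benjamini-Hochberg adjustment over all genes tested), 334 differentially expressed genes (DEGs) were higher in Sham-OVA and 422 were lower, which is 2.05% and 2.6% of the genes tested. In the wider call used below for the words rose and fell, with the adjusted p set at 0.05 and the fold change kept, 1819 genes rose (11.2%) and 5110 fell (31.4%). Every Sham-OVA library lay above every Sham library in 2193 genes (13.5%) and below every Sham library in 5807 (35.7%), and all DEGs were among these. Genes named below from a list were in large part its risers and fallers with the smallest p. Where their groups do not overlap, that was largely set by this choice and is a description, to be read against these shares. The median log2 fold change of all genes tested was -0.49, and fold changes below can be read against it. Of all called genes, 26.3% were risers on the deposited scale, 43.9% after median-of-ratios scaling, 50.6% after quantile normalisation and 52.6% when fold changes were taken relative to that median. Here and below, that last alternative moved only the fold changes. It kept the adjusted p of the main fit, which tests against a log2 fold change of 0, so it is a shifted cutoff and not a new test. In parentheses, and after rose by or changed by, log2 fold changes are given as value ± SE, positive where Sham-OVA was higher, on the log2(RPM + 0.5) scale, which understates the change of low genes. The DEG counts rested on single libraries more than the wider counts did. Without Sham-OVA replicate 3 there were 960 higher and 2118 lower DEGs, and without any other single library 128 to 243 and 146 to 330. The study applied its threshold to DESeq2 on raw counts, so the DEG counts from limma cannot be set beside its own. On whole reads recovered from the RPM values, DESeq2 gave 2348 higher and 2516 lower DEGs at that threshold.

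**Figure D1:**
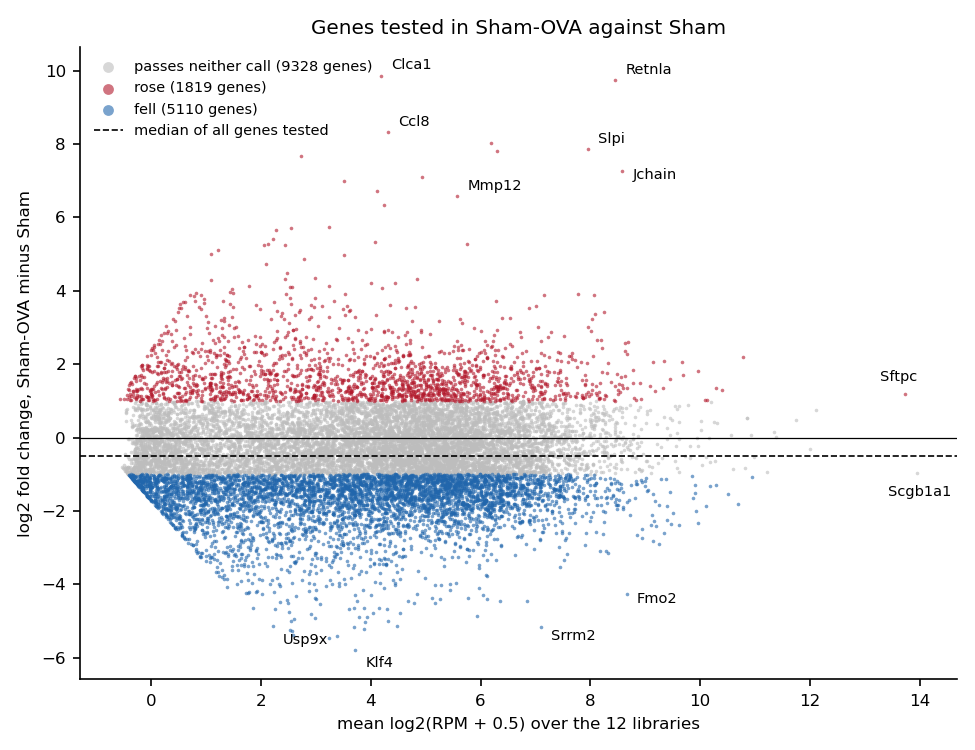
Log2 fold change in Sham-OVA against Sham plotted against the mean log2(RPM + 0.5) over the 12 libraries, 1 point per gene. Red points are the 1819 genes that rose, blue points the 5110 that fell and grey points the rest, and the dashed line is the median of all genes tested at -0.49; rises reached 9.86 for Clca1, whereas falls reached -5.80 for Klf4.

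The 2 groups were not sequenced alike. Reads on genes ranged from 13827228 to 16671489 in Sham and from 2298645 to 12185451 in Sham-OVA, so that 1 read was worth 0.0502 to 0.0634 RPM in Sham and up to 0.311 RPM in Sham-OVA replicate 3, the shallowest library. Reads on genes made up 83.0% to 92.4% of each Sham library and 71.4% to 85.7% of each Sham-OVA library, the lowest again in replicate 3. The median SD of a gene between replicates was 0.26 log2 units in Sham and 0.48 in Sham-OVA. Without Sham-OVA replicate 3, 1883 genes rose and 4043 fell. Of the lung markers looked at, the surfactant gene Sftpc was at 6489.6 to 14557 RPM in Sham and 19549.8 to 25078 RPM in Sham-OVA, the club cell gene Scgb1a1 at 13001 to 34397 and 3404 to 26224 RPM, and the leukocyte gene Ptprc at 116 to 232 and 97.6 to 249 RPM. Sham replicate 1 held 0.289 RPM of Xist, which female cells transcribe from the inactive X chromosome, 54.0 RPM of Y-linked Eif2s3y and 123 RPM of Y-linked Ddx3y, whereas the other 6 controls held 528 to 1618 RPM of Xist and Eif2s3y had no read in any of the other 11. It was kept in its group, and 1701 genes rose and 5093 fell without it.

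Many of the genes with the largest rises encode secreted proteins of airway epithelium, macrophages, eosinophils and plasma cells. Clca1 (chr3:145003817-145032776 in GRCm38), which encodes a protease secreted with goblet cell mucus, was at 423, 1082, 1338, 828 and 1755 RPM in Sham-OVA replicates 1 to 5 and 0 to 6.16 RPM with a median of 0.507 in Sham. Its log2 fold change was 9.86 ± 0.56 (adjusted p = 8.46e-09), the largest of any gene tested, and no library of either group came near the other group. Slpi, an inhibitor of neutrophil proteases made by airway epithelium and macrophages, was at 4543, 6696, 8187, 5083 and 5900.4 RPM, against 15.3 to 41 RPM with a median of 25.5 (7.86 ± 0.23, adjusted p = 9.83e-12). The spread of Slpi within Sham-OVA was small beside the 230.0-fold ratio of the group means. Saa3, an acute phase protein, had 304, 259.7, 297, 328 and 164 RPM against 0.981 to 3.07 RPM with a median of 2.22 (6.72 ± 0.25, adjusted p = 1.76e-10). AA467197, known as Nmes1, which encodes a small mitochondrial protein, had 46.3, 76.1, 47.5, 69.4 and 55.7 RPM against 0.0633 to 1.39 RPM with a median of 0.695 (5.71 ± 0.28, adjusted p = 1.71e-09). The other named DEGs with the largest rises, 11 of 15, belong to the gene groups that follow.

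**Figure D2:**
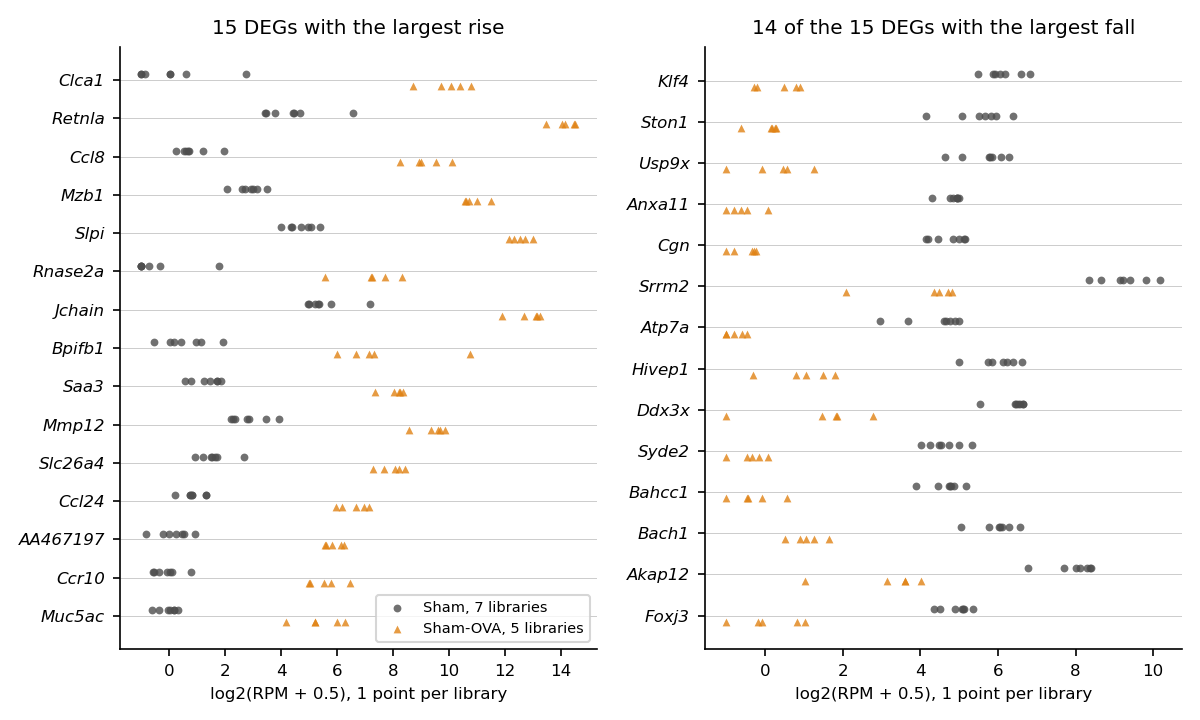
Log2(RPM + 0.5) of the 15 DEGs with the largest rise (left) and 14 of the 15 with the largest fall (right), leaving out unnamed gene models and immunoglobulin and T cell receptor segments. Circles are the 7 Sham and triangles the 5 Sham-OVA libraries, and the 2 groups are apart for each gene; Sham-OVA replicate 3 holds the lone high point of Bpifb1 at 1701 RPM.

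Genes of goblet cell mucus rose together. Of 23 genes listed for mucus and its secretion, 21 were tested and 14 rose, against 1 that fell, and their median log2 fold change was 2.51. Muc5ac, the inducible gel-forming mucin of goblet cells, was at 17.7, 36.7, 77.4, 36.9 and 62.5 RPM in the Sham-OVA libraries and 0.151 to 0.755 RPM with a median of 0.507 in Sham (5.42 ± 0.32, adjusted p = 1e-08). Muc5b, the mucin that unchallenged airways also make, was at 43.1, 103, 204, 104 and 242 RPM and 3.78 to 30.6 RPM with a median of 9.09 (3.57 ± 0.49, adjusted p = 1.79e-05). The groups did not overlap for either mucin, and per kilobase of transcript Muc5b remained the more abundant, at 9.31 RPM per kb in Sham-OVA, compared with 4.3 for Muc5ac. The transcription factors Spdef and Foxa3, which drive goblet cell differentiation, rose by 2.15 ± 0.28 and 2.51 ± 0.34 (adjusted p = 1.4e-05 and 1.79e-05). Agr2, a disulphide isomerase that mucins need in order to fold, had 3.06 to 20.3 RPM in Sham-OVA and 0 to 0.635 RPM with a median of 0.0633 in Sham (3.78 ± 0.37, adjusted p = 9.12e-07). The trefoil peptides, which are secreted with mucus, were close to absent without challenge. Tff1 had no read in any Sham library and 1.81, 8.12, 15.2, 3.82 and 6.43 RPM after challenge, and Tff2 had 5.98, 12.7, 24.5, 9.96 and 24.5 RPM, against 0 to 0.984 RPM with a median of 0.279. The intelectin Itln1 and the mucus protein Fcgbp rose as well (3.20 ± 0.27 and 3.33 ± 0.31, adjusted p = 2.13e-07 and 5.31e-07). The member that fell was Muc16, a membrane-bound mucin (-1.59 ± 0.38, adjusted p = 0.00189), with groups that overlapped. Sham-OVA replicate 1 was the lowest of the challenged libraries for Clca1, Muc5ac, Muc5b, Agr2, Tff1 and Tff2.

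Other secreted proteins of the airway moved in both directions. Bpifb1, a mucosal defence protein of goblet cells, was at 63.4, 159.8, 1701, 102 and 141 RPM, against 0.19 to 3.3 RPM with a median of 0.853 (6.98 ± 0.65, adjusted p = 6.24e-07), with replicate 3 far above the other challenged libraries. Lcn2 and Ltf, which withhold iron from bacteria, rose by 3.01 ± 0.17 and 3.57 ± 0.38 (adjusted p = 9.36e-09 and 2.12e-06), and Pglyrp1, which binds bacterial peptidoglycan, by 3.54 ± 0.25 (adjusted p = 5.54e-08). Among the proteins of club cells, the secretory cells of the small airway, the cytochrome P450 Cyp2f2 was at 154, 353, 455, 432 and 825 RPM after challenge and 1567 to 2457 RPM with a median of 2003 in Sham (-2.34 ± 0.31, adjusted p = 1.23e-05). Every Sham-OVA library was below every Sham library for Cyp2f2, whereas for the secretoglobin Scgb1a1 the groups overlapped (-0.96 ± 0.44, adjusted p = 0.0631). The lysozymes Lyz1 and Lyz2, which near-identical sequences make hard to count apart, both fell (-2.32 ± 0.34 and -1.81 ± 0.33, adjusted p = 3.17e-05 and 0.00023). In all, 7 of 22 tested members of this list rose and 5 fell (8 and 8 once effects of length and GC content of transcripts were taken out). The 22.7% that fell was below the 31.4% of all genes, and the 31.8% that rose was above their 11.2%.

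Among RELM and chitinase-like proteins, secreted products of macrophages and epithelium in type 2 inflammation, 8 of 9 tested members rose and 0 fell. Retnla, which encodes the resistin-like molecule RELM-alpha, was at 18189, 16839, 11407, 23305 and 22640.5 RPM in Sham-OVA and 10.2 to 94.1 RPM with a median of 20.7 in Sham (9.74 ± 0.43, adjusted p = 1.03e-09), and its gain of mean level was the largest of all genes, in RPM and in RPM per kilobase. Its neighbours on chromosome 16 differed in level: Retnlg, found in neutrophils, reached 60.3 to 246 RPM, and Retnlb, found in mucus cells, 0.973 to 13.4 RPM. Per kilobase, the Sham-OVA means were 30845 RPM for Retnla, 223 for Retnlg and 11.6 for Retnlb. The member that passed neither call was Retn itself, which encodes resistin and is best known from fat (0.695, 0.752, 2.17, 0.319 and 0.73 RPM against 0.116 to 1.14 RPM with a median of 0.465). Chia1, the chitinase of acid environments, had 1483, 1292, 785, 1694 and 1394 RPM against 61.5 to 110.0 RPM with a median of 95.2 (3.90 ± 0.21, adjusted p = 5.3e-09). Its chitinase-like neighbours on chromosome 3 have no enzyme activity. Of these, Chil3 had 27.1, 31.3, 15.2, 34.3 and 40.2 RPM against 0.151 to 1.2 RPM with a median of 0.57 (4.74 ± 0.28, adjusted p = 1.2e-08), and Chil4 had 7.57, 18.4, 66.5, 12.3 and 15.8 RPM, with no more than 2 reads in any Sham library. Chil3 and Chil4 are close paralogs, and reads shared between them could have been assigned to either gene. Chil1, a chitinase-like protein of macrophages and epithelium on chromosome 1, rose from 337 to 665 RPM with a median of 474 to 2248, 1829, 1263, 2178 and 2089 RPM (2.06 ± 0.20, adjusted p = 7.37e-07), and no library of either group crossed.

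The promoter of Retnla is shown because its gain of level was the largest of all genes, and because STAT6 is known to act on it in macrophages. The window runs from 250 bases before to 50 bases after the start of the gene in RefSeq (GRCm38.p6, chr16:48842359-48842658, plus strand), and capitals mark the only match to TTCNNNNGAA, the palindromic letters that STAT6 can bind, whose first base lies 145 bases before the start.
Retnla: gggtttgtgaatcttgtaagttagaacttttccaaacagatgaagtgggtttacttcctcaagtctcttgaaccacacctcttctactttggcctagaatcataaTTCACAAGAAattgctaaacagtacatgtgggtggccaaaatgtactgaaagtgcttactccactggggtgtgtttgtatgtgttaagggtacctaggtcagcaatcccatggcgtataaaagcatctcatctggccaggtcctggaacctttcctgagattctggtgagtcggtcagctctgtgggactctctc
This motif was held by 2284 of 32851 windows of the same length (6.95%), by 2 of the 11 windows of RELM and chitinase-like genes (Retnla and Retnlg), by 1 of 16 windows of CC chemokines (Ccl17) and by 0 of 15 windows of mucus genes. A match describes these letters only.

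CC chemokines, small secreted proteins that recruit leukocytes through CCR receptors, rose in 12 of 16 tested members, with a median log2 fold change of 2.97, and none fell. Ccl8, a ligand of CCR8 in mice, was at 1107, 515, 305, 745 and 488 RPM in Sham-OVA and 0.693 to 3.37 RPM with a median of 1.1 in Sham (8.32 ± 0.32, adjusted p = 2.38e-10). The eotaxins Ccl11 and Ccl24, ligands of the eosinophil receptor CCR3, were at 90.7, 79.4, 63.7, 116 and 83.8 RPM and 102, 125, 71.1, 141 and 61.6 RPM, respectively, and no higher than 3.14 and 1.98 RPM in any Sham library (4.98 ± 0.24 and 5.73 ± 0.25, adjusted p = 1.71e-09 and 8.27e-10). For all 3 genes, the lowest challenged library was many times above the highest control. Ccl8 lies in a cluster on chromosome 11 with Ccl2, Ccl7, Ccl11 and Ccl12 (chr11:82035571-82116799 from Ccl2 to Ccl8), and each of these 5 neighbours rose. Ccl2, Ccl7 and Ccl12, ligands of the monocyte receptor CCR2, changed by 3.28 ± 0.32, 3.63 ± 0.44 and 3.41 ± 0.22 (adjusted p = 9.24e-07, 5.75e-06 and 2.21e-08). Per kilobase, the Sham-OVA mean of Ccl8 was 1237 RPM, compared with 80.1 for Ccl11, 38.4 for Ccl12 and 10.2 for Ccl2. Ccl9 and Ccl6, made by macrophages and eosinophils and encoded on the same chromosome, reached 177 to 583 and 124 to 964 RPM, from 16.8 to 39.6 and 76.3 to 340.4 RPM. Ccl17 and Ccl22, ligands of CCR4 made by dendritic cells and macrophages, rose by 1.69 ± 0.32 and 2.31 ± 0.25 (adjusted p = 0.000311 and 2.12e-06). Ccl17 and Ccl6 overlapped with Sham through replicate 3 alone, at 4.66 and 123.7 RPM. Ccl5, a product of cytotoxic lymphocytes, had 34, 28.5, 14, 45.9 and 53.3 RPM against 19 to 51.7 RPM with a median of 26.8, and the groups overlapped. Ccl19, Ccl21a and Ccl27a were listed at 0 in all 12 libraries, but whether reads of these genes were lost in counting was not tested, so a listed 0 need not mean absence.

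In the CXC, CX3C and XC families 7 of 16 members rose and 3 fell (8 and 1 after median-of-ratios scaling, and 7 and 1 without Sham-OVA replicate 3). Cxcl9, which is induced by interferon-gamma, was at 3.2, 3.46, 0.932, 3.03 and 3.51 RPM against 0.127 to 0.579 RPM with a median of 0.232, and platelet factor Pf4, which macrophages also make, at 48.1, 28.3, 17.1, 41.8 and 37.1 RPM against 4.1 to 12.4 RPM with a median of 8.05. Cxcl9 and Pf4 rose by 2.00 ± 0.27 and 2.02 ± 0.29 (adjusted p = 1.64e-05 and 3.11e-05). The neutrophil chemokine Cxcl5 was uneven between challenged libraries, at 28.2, 10.4, 3.11, 17.7 and 4.09 RPM, against 0.1 to 1.34 RPM with a median of 0.981 (3.01 ± 0.48, adjusted p = 7.54e-05). The homeostatic chemokines Cxcl12 and Cx3cl1 fell (-1.14 ± 0.27 and -1.08 ± 0.23, adjusted p = 0.00179 and 0.000683), although without Sham-OVA replicate 3 their log2 fold changes were -0.84 and -0.85 and neither passed the call, and Cx3cl1 was at -0.98 without Sham replicate 6. Among 23 chemokine receptors 5 rose and 8 fell, near the background of fallers. Ccr3, the eosinophil receptor, was at 10.1, 6.7, 2.8, 14.3 and 6.21 RPM against 0.201 to 0.761 RPM with a median of 0.463 (3.03 ± 0.31, adjusted p = 1.36e-06), and Ccr10, a homing receptor of antibody-secreting cells, at 31.5, 45.8, 87, 31.9 and 54.9 RPM against 0.174 to 1.22 RPM with a median of 0.452 (5.65 ± 0.29, adjusted p = 3.75e-09). Ccr6, a receptor of lymphocytes and dendritic cells, was at 0.984 to 3.12 RPM with a median of 2.25 in Sham and had no read in any Sham-OVA library. The scavenging receptors Ackr2 and Ackr4, which remove chemokines without signalling, fell by 2.56 and 2.22 on the log2 scale (adjusted p = 7.61e-06 and 1.66e-05).

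The type 2 cytokines themselves were near the limit of detection, and their list of 27 tested genes split into 6 that rose and 5 that fell (10 and 1 after median-of-ratios scaling, and 7 and 1 without Sham-OVA replicate 3). Il5, the eosinophil cytokine, chosen after its values were seen, was at 2.71, 0.828, 0, 1.2 and 0.584 RPM, with at most 0.174 RPM in Sham. It passed the filter on low values through Sham-OVA libraries alone, and its place among the 6 risers was lost with a pseudocount of 1 and with 1 depth for all libraries. Il5 had no read in Sham-OVA replicate 3, where 3 reads are worth 0.932 RPM, so that levels like those of replicates 2 and 5 were not detectable there. Il13 and Il4, also chosen after their values were seen, did not pass the filter. Il13 was at 4.24, 2.56, 0, 2.15 and 0.146 RPM, with no read in Sham, and Il4 at 1.39, 0.903, 0, 1.59 and 0.292 RPM, with at most 0.254 RPM in Sham. Gata3, the transcription factor of T helper cells of this type, was at 62.2, 42.7, 46.9, 57.7 and 35.5 RPM against 7.27 to 16.3 RPM with a median of 12.3 (2.04 ± 0.21, adjusted p = 1.32e-06). Il10, a cytokine of regulatory cells, was at 11.1, 9.33, 7.77, 9.96 and 3.14 RPM, with at most 0.289 RPM in Sham, and Socs1, which restrains cytokine receptors, at 70.0, 67, 38.5, 60.4 and 36.4 RPM against 3.69 to 9.51 RPM with a median of 6.58 (2.96 ± 0.23, adjusted p = 1.37e-07). Of the receptors and signal carriers, Stat6 had 128, 120.3, 121, 138 and 116 RPM against 124 to 156 RPM with a median of 138 and passed neither call, and Il13ra1, a subunit of the interleukin-13 receptor, fell (-1.06 ± 0.19, adjusted p = 0.000223, and -0.85 without Sham-OVA replicate 3, past neither call). Of the alarmins, Tslp fell on the deposited scale (-1.36 ± 0.53, adjusted p = 0.0319), with groups that overlapped and no read in Sham-OVA replicate 3, without which its log2 fold change was -0.67 and passed neither call. The call on Tslp was also lost without Sham replicate 3, 4 or 7, at -1.21 to -1.33. Il9 and Il25 were listed at 0 in all 12 libraries.

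Of 16 eosinophil genes listed, 12 were tested and 9 rose. Rnase2a, which encodes an eosinophil-associated ribonuclease, was at 321, 146, 46.9, 209 and 151 RPM in Sham-OVA and 0 to 2.96 RPM with a median of 0 in Sham (7.68 ± 0.52, adjusted p = 3.31e-08). Prg2, the major basic protein of eosinophil granules, had 7.71, 12.4, 3.73, 16.4 and 5.77 RPM and at most 0.174 RPM in Sham, and Epx, their peroxidase, 1.88, 2.86, 1.24, 2.71 and 1.02 RPM and no read in Sham. Prg2 and Epx passed the filter on low values through Sham-OVA libraries alone, and Rnase2a and Cebpe could not have passed it on their Sham libraries. Granule transcripts of blood eosinophils are mostly made before the cells leave the marrow, and the transcription factor Cebpe, which drives that step, was at 7.99, 8.2, 5.28, 9.96 and 5.48 RPM against 0 to 0.507 RPM with a median of 0.174 (3.50 ± 0.22, adjusted p = 2.26e-08). The interleukin-5 receptor Il5ra was even between the challenged libraries, at 7.57, 7.82, 10.6, 8.53 and 8.47 RPM against 0.232 to 0.761 RPM with a median of 0.552 (3.18 ± 0.20, adjusted p = 1.97e-08). The member that fell, Siglecf, is a surface lectin that alveolar macrophages carry as well, at 4.17, 3.01, 1.24, 6.06 and 4.31 RPM against 2.86 to 12.4 RPM with a median of 8.08 (-1.01 ± 0.35, adjusted p = 0.0181). Its groups overlapped, and its log2 fold change was -0.72 without Sham-OVA replicate 3 and -0.89 to -0.99 without Sham replicate 2, 4, 5 or 6 or Sham-OVA replicate 2, past neither call.

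Of 15 mast cell and basophil genes listed, 13 were tested, of which 8 rose and 1 fell. The tryptases Tpsb2 and Tpsab1, proteases stored in mast cell granules, were at 5.28, 4.59, 5.9, 6.85 and 4.97 and 2.43, 2.93, 5.59, 2.07 and 1.61 RPM, against 0.289 to 1.1 RPM with a median of 0.926 and 0 to 0.334 RPM with a median of 0.0634 (2.26 ± 0.22 and 2.36 ± 0.25, adjusted p = 7.64e-07 and 1.76e-06). The mucosal protease Mcpt2 had 2.71, 2.26, 1.55, 1.51 and 1.97 RPM and at most 0.151 RPM in Sham. These levels were low but separate in every library. Tpsab1 and Mcpt2 passed the filter on low values through Sham-OVA libraries alone, so their separation is a description. Mcpt8, a basophil protease chosen after its values were seen, was at 1.11, 0.752, 0.932, 68 and 0.876 RPM against 0.115 to 0.639 RPM with a median of 0.317, and 1 library, Sham-OVA replicate 4, held most of its reads. Its log2 fold change was 1.97 ± 0.79 (adjusted p = 0.037) and 0.85 without that library, which is no longer a rise. The call was also lost without Sham replicate 1, 2, 3, 4, 5 or 7, at 1.91 to 1.998. Fcer1g, the signalling chain of the IgE receptor and of other Fc receptors, was at 58.6, 52.6, 50.6, 77.4 and 58.9 RPM against 9.35 to 20.1 RPM with a median of 11.5 (2.25 ± 0.19, adjusted p = 2.45e-07). Kit, the receptor of stem cell factor, which lung endothelium also carries, fell (-1.82 ± 0.34, adjusted p = 0.00026).

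Enzymes of leukotriene and prostaglandin synthesis rose in 13 of 31 tested members and fell in 4 (17 and 2 after median-of-ratios scaling, and 12 and 2 without Sham-OVA replicate 3). Alox15, a lipoxygenase of alternatively activated macrophages and eosinophils, was at 44.9, 37, 8.39, 57.6 and 31.1 RPM against 0.577 to 3.87 RPM with a median of 0.725 (4.09 ± 0.47, adjusted p = 4.12e-06), and Pla2g7, which breaks down platelet-activating factor, at 73.2, 56.8, 44.1, 88.6 and 55.2 RPM against 11.9 to 25.9 RPM with a median of 13 (2.03 ± 0.21, adjusted p = 1.88e-06). Ptgdr, a prostaglandin D2 receptor, had 5.21, 2.26, 2.8, 3.9 and 3.21 RPM and at most 0.116 RPM in Sham. In the other direction, Hpgd, which inactivates prostaglandins, was at 83.5, 63.1, 12.1, 96.4 and 146 RPM against 290.2 to 516 RPM with a median of 432 (-2.74 ± 0.44, adjusted p = 7.69e-05), and Ptgfr, the prostaglandin F receptor, at 2.29, 2.03, 1.24, 3.9 and 3.72 RPM against 13.8 to 31.3 RPM with a median of 19.7 (-2.84 ± 0.26, adjusted p = 5.53e-07). Groups did not overlap for any of these 5 genes.

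Genes of alternatively activated macrophages rose in 14 of 22 members and fell in none. The lectin Clec10a, which binds glycans, was at 23.8, 22.5, 12.4, 23.6 and 21.8 RPM in Sham-OVA and 1.27 to 2.72 RPM with a median of 2.41 in Sham (2.97 ± 0.22, adjusted p = 7.39e-08). Pdcd1lg2, a ligand of PD-1, was at 20.1, 13.3, 7.46, 17.1 and 10.6 RPM against 0.116 to 0.824 RPM with a median of 0.289 (3.97 ± 0.27, adjusted p = 4.17e-08), and Trem2, a lipid receptor, at 55.4, 70.5, 19.9, 61.9 and 40.8 RPM against 2.41 to 6.37 RPM with a median of 3.85 (3.49 ± 0.30, adjusted p = 3.33e-07). Arg1, the arginase of this state, chosen after its values were seen, was at 88.9, 82.4, 11.5, 98.7 and 31.3 RPM against 0.507 to 5.14 RPM with a median of 0.577 (4.85 ± 0.56, adjusted p = 4.05e-06). All 4 genes were higher in every challenged library, and Arg1 was lowest in Sham-OVA replicate 3. Genes of resident alveolar macrophages were divided, with 6 of 20 that rose and 7 that fell (6 and 2 without Sham-OVA replicate 3, and 9 and 4 after median-of-ratios scaling). The scavenger receptor Marco was at 0.278, 0.301, 0, 0.0797 and 0.511 RPM against 0.808 to 5.93 RPM with a median of 2.79 (-1.99 ± 0.37, adjusted p = 0.000242), and Pparg, the factor that specifies these cells, fell (-1.11 ± 0.30, adjusted p = 0.00434, and -0.77 without Sham-OVA replicate 3, past neither call). The integrin Itgax rose (2.99 ± 0.24, adjusted p = 1.68e-07). In whole tissue, fewer cells of a type and less RNA per cell cannot be told apart, and this holds for every gene group here.

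Fc receptors, lectins and ITAM signalling genes rose in 13 of 28 members and fell in 2 (7 and 1 after the length and GC content trend was removed). The exchange factor Vav1 was at 76.3, 68.2, 56.5, 75.2 and 50.4 RPM against 8.6 to 19.3 RPM with a median of 13 (2.26 ± 0.20, adjusted p = 4.03e-07), and the inhibitory receptor Pirb at 59.6, 35.9, 39.1, 67 and 57.6 RPM against 8.37 to 16.9 RPM with a median of 10.9 (2.10 ± 0.21, adjusted p = 9.86e-07). Of 25 complement genes 7 rose and 7 fell, the fallers near the background of all genes. The 3 chains of C1q, which starts the classical pathway, rose: C1qa was at 1187, 941, 1439, 1049.8 and 809.7 RPM against 47.8 to 88 RPM with a median of 75 (3.91 ± 0.19, adjusted p = 1.71e-09), and C1qb and C1qc rose by 2.93 ± 0.27 and 3.52 ± 0.19 (adjusted p = 4.71e-07 and 6.35e-09). Properdin, encoded by Cfp, which stabilises the convertase, rose as well (3.18 ± 0.23, adjusted p = 7.27e-08). C7, a part of the membrane attack complex, was at 7.5, 7.75, 0.932, 5.42 and 2.63 RPM against 60.3 to 132 RPM with a median of 113 (-4.50 ± 0.38, adjusted p = 2.61e-07). No library crossed between the groups for the complement genes named.

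Antigen presentation by MHC class II rose in 13 of 18 genes and fell in none. The chains H2-Ab1 and H2-Eb1 were at 1297, 1237, 944, 1342 and 870.1 and 1571, 1138, 1000.1, 1232 and 1000.1 RPM, against 127 to 270.4 RPM with a median of 191 and 124 to 304 RPM with a median of 199.6 (2.57 ± 0.20 and 2.60 ± 0.21, adjusted p = 1.06e-07 and 1.41e-07). Cd74, the invariant chain that guards their groove, was at 6502, 5831, 1870.4, 5368 and 3869.8 RPM against 669 to 1518 RPM with a median of 965 (2.20 ± 0.30, adjusted p = 1.6e-05), and was lowest of the challenged libraries in replicate 3. Lgmn, a lysosomal protease that trims antigens, rose by 2.90 ± 0.18 (adjusted p = 2.08e-08). Of 25 T cell genes 10 rose and 2 fell (13 and 0 after median-of-ratios scaling). Among those that rose were Pdcd1, the PD-1 receptor of activated T cells, at 22.5, 24.1, 12.4, 26.2 and 14.8 RPM against 0.81 to 2.89 RPM with a median of 1.45 (3.24 ± 0.28, adjusted p = 3.38e-07), and the co-stimulators Tnfrsf4 and Tnfrsf18 (2.22 ± 0.24 and 1.91 ± 0.21, adjusted p = 1.99e-06 and 2.62e-06), together with Cd4 (1.66 ± 0.21, adjusted p = 9.02e-06). Of 19 genes of NK and cytotoxic lymphocytes 0 rose and 8 fell, although 1 fell after quantile normalisation and 4 without Sham-OVA replicate 3. Ncr1, an NK receptor, was at 4.52, 2.86, 2.17, 6.21 and 5.62 RPM against 6.41 to 21.1 RPM with a median of 12.9 (-1.45 ± 0.32, adjusted p = 0.00109). Of 27 neutrophil and monocyte genes 7 rose and 3 fell (11 and 2 after quantile normalisation). Finally, 1 of 8 T cell receptor segments tested moved in each direction (2 rose and 0 fell after median-of-ratios scaling), Trbc2 upward (2.15 ± 0.24, adjusted p = 3.42e-06) and Trdc downward (-1.04 ± 0.30, adjusted p = 0.00611, and -0.70 without Sham-OVA replicate 3 and -0.98 without Sham replicate 4, past neither call).

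Plasma cell and B cell genes rose in 18 of 28 members and fell in 1. Jchain, which joins the units of secreted IgA and IgM, was at 8879.8, 9793, 3788, 6561 and 9031 RPM in Sham-OVA and 30.9 to 145 RPM with a median of 39.4 in Sham (7.27 ± 0.35, adjusted p = 1.71e-09). Mzb1, an endoplasmic reticulum chaperone of antibody-secreting cells, was at 1654, 2042, 2924, 1568 and 1519 RPM against 3.69 to 10.7 RPM with a median of 7.03 (8.04 ± 0.23, adjusted p = 9.03e-12). The gene model Gm50318 had nearly the same values as Mzb1 in every library (1492 to 2919.9 RPM in Sham-OVA), so that reads may have been counted for both. The immunoglobulin light chain gene Iglc2 was at 796, 507, 862, 335 and 388 RPM against 1.1 to 7.61 RPM with a median of 3.57 (7.10 ± 0.34, adjusted p = 1.71e-09), and no other immunoglobulin constant gene was analysed here. Irf4, the transcription factor of plasma cell differentiation, was at 149, 175, 259, 141 and 126 RPM against 5.73 to 10.3 RPM with a median of 8.08, and Derl3, a part of the machinery that removes misfolded proteins, at 128, 196, 187, 117 and 121 RPM against 2.37 to 4.63 RPM with a median of 3.12. Irf4 and Derl3 rose by 4.32 ± 0.21 and 5.34 ± 0.19 (adjusted p = 1.71e-09 and 1.38e-10). Pigr, which carries IgA and IgM across epithelium and was chosen after its values were seen, was at 420.1, 491, 504, 638 and 763 RPM against 30.8 to 62 RPM with a median of 47.5 (3.59 ± 0.20, adjusted p = 7.95e-09). The member that fell, Sdc1, is a surface proteoglycan of plasma cells that epithelium carries as well (-1.66 ± 0.25, adjusted p = 4.66e-05).

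Genes that fold and export proteins in the endoplasmic reticulum rose in 21 of 45 members and fell in none. Manf, a secreted factor of endoplasmic reticulum stress, was at 866, 1278, 1501, 997 and 797 RPM against 70.4 to 149.5 RPM with a median of 103 (3.36 ± 0.21, adjusted p = 2.14e-08), and Edem1, which marks misfolded glycoproteins for removal, at 677, 843, 1517, 665 and 743 RPM against 83.5 to 128 RPM with a median of 108 (3.02 ± 0.20, adjusted p = 3.03e-08). Sec11c, a signal peptidase subunit, was the member with the smallest p, at 322, 341, 387, 319.7 and 306 RPM against 35.5 to 58.5 RPM with a median of 45.8 (2.87 ± 0.14, adjusted p = 1.71e-09). The chaperone Hspa5 (BiP), which passed neither call, had 1352, 1573, 292, 1298 and 877 RPM against 389 to 1129 RPM with a median of 712, with 4 of 5 challenged libraries above the median of Sham and replicate 3 below every Sham library. The promoters of Creld2 and Pdia6, which act on disulphide bonds in this compartment, are shown because both genes rose (2.63 ± 0.28 and 2.35 ± 0.16, adjusted p = 1.78e-06 and 4.9e-08) and hold the endoplasmic reticulum stress element, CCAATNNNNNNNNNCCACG on either strand, through which the unfolded protein response acts. Both were chosen after their values were seen. Capitals mark the element in RefSeq windows of GRCm38.p6, both on the plus strand (chr15:88819396-88819695 and chr12:17266339-17266638), and the element starts 126 and 98 bases before the gene.
Creld2: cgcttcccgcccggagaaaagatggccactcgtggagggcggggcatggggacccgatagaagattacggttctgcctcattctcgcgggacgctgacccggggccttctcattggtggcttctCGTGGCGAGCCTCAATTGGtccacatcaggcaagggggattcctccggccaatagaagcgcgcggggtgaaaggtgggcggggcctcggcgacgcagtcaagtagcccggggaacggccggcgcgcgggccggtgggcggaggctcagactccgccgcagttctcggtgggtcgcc
Pdia6: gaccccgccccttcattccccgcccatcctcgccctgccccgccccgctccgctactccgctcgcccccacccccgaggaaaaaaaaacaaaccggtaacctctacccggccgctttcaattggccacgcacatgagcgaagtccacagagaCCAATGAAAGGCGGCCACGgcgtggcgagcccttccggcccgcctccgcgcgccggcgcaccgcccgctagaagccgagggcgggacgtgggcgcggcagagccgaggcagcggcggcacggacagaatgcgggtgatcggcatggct
The element was found in 39 of 32851 windows (0.119%) and in 8 of 42 windows of this list, those of Calr, Canx, Creld2, Dnajc3, Hsp90b1, Hspa5, Pdia6 and Syvn1, of which Creld2, Pdia6 and Syvn1 rose. The CCAAT box that forms its first part was in 28 of the 42 windows and in 37.4% of all windows.

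Cell division genes had the largest share of risers among the lists with 10 or more members tested. Of 41 genes of mitosis 35 rose and 0 fell, with a median log2 fold change of 1.97, and 35 also rose after median-of-ratios scaling, 36 after quantile normalisation and 35 after the length and GC content trend was removed. Cdk1, the kinase that starts mitosis, was at 61.7, 40.9, 47.8, 45.5 and 33.8 RPM in Sham-OVA and 1.81 to 3.8 RPM with a median of 2.95 in Sham (3.73 ± 0.20, adjusted p = 6.35e-09). Cdc20 and Ube2c, parts of the ubiquitin machinery that ends mitosis, were at 28.6, 22.7, 42.6, 21.6 and 18 and 7.92, 6.17, 10.6, 6.53 and 4.31 RPM, against 1.46 to 2.37 RPM with a median of 2.03 and 0.19 to 0.463 RPM with a median of 0.349 (3.43 ± 0.22 and 3.16 ± 0.21, adjusted p = 2.11e-08 and 3.26e-08). None of the 3 genes overlapped between the groups. Mki67, the antigen used to stain dividing cells, passed neither call. It was at 38.1, 18.5, 0.311, 21.3 and 9.93 RPM against 7.17 to 21.3 RPM with a median of 11.8, and the 0.311 RPM of replicate 3 was a single read, whereas Cdk1, Cdc20 and Ube2c were no lower there than in replicate 5. Of 45 genes of DNA replication 27 rose and 0 fell, with a median of 1.19. Rrm2, a subunit of the reductase that makes deoxynucleotides, was at 44.1, 26.1, 15.5, 32 and 20.5 RPM against 1.34 to 3.01 RPM with a median of 1.86 (3.47 ± 0.26, adjusted p = 8.06e-08). The flap nuclease Fen1, the ligase Lig1 and the single-strand binding protein Rpa2 rose by 2.01 ± 0.15, 2.21 ± 0.17 and 2.05 ± 0.16 (adjusted p = 9.38e-08, 9.41e-08 and 1.59e-07). Replication-dependent histones, whose messages lack a poly(A) tail, were mostly below the filter, and of 13 tested 2 rose and 3 fell (5 and 1 after quantile normalisation, and 5 and 3 after median-of-ratios scaling). None of them could be tested with the length and GC trend removed.

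The promoters of Cdc20, Ube2c and Rpa2 are shown for the motifs of the mitosis and replication lists. In Cdc20 (chr4:118437294-118437593, minus strand) and Ube2c (chr2:164769679-164769978, plus strand) capitals mark TTTGAA on either strand, the cell cycle homology region known from genes of late cell cycle phases, which starts 18 and 29 bases before the gene. In Rpa2 (chr4:132768110-132768409, plus strand) they mark GCGGGAA, a form of the E2F motif of genes expressed at the start of DNA synthesis, 37 bases before the gene.
Cdc20: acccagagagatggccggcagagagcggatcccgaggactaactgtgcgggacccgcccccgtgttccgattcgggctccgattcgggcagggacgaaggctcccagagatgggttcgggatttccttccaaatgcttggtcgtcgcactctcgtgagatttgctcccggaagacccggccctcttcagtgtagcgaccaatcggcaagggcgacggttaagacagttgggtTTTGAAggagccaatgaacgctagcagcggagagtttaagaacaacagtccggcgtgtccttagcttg
Ube2c: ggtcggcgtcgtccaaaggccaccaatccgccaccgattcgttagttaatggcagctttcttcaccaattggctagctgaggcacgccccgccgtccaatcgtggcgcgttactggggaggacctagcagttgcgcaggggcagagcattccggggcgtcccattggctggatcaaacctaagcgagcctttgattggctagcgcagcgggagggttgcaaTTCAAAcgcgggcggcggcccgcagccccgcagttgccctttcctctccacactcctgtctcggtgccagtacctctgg
Rpa2: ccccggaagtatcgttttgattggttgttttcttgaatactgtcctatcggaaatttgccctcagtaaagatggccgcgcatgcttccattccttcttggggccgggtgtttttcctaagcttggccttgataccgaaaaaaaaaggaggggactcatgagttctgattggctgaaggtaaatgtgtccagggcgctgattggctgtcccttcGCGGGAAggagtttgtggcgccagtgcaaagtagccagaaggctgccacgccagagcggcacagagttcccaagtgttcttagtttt
TTTGAA was in 30 of 38 windows of the mitosis list (78.9%), in 5 of 42 of the replication list (11.9%) and in 17.9% of all windows. GCGGGAA was in 17 of 42 windows of the replication list (40.5%), in 0 of 38 of the mitosis list and in 4.60% of all windows. Both lists were drawn up by function, and the motifs took no part in choosing the members.

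**Figure D3:**
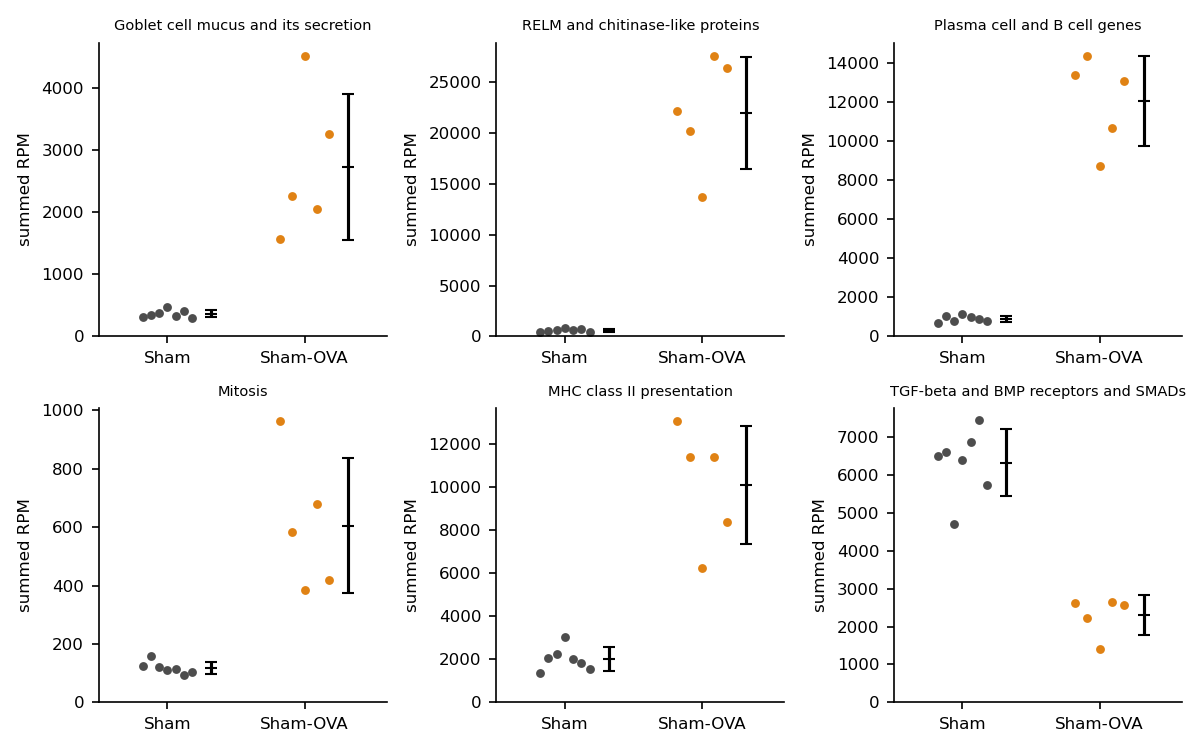
Summed RPM of 6 gene lists in each library, 1 point per library, with the mean and SD of each group as a bar at its side. The 5 Sham-OVA libraries lie above the 7 Sham libraries in 5 lists and below them in the list of TGF-beta and BMP receptors and SMADs.

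Proteases of the extracellular matrix and their inhibitors moved in both directions, with 14 of 33 members that rose and 7 that fell. The 21.2% that fell was below the 31.4% of all genes, and the 42.4% that rose was above their 11.2%. Mmp12, the macrophage elastase, was at 645, 919, 378, 821 and 768 RPM in Sham-OVA and 4.17 to 14.5 RPM with a median of 6.29 in Sham (6.57 ± 0.30, adjusted p = 1.33e-09). Mmp13, a collagenase, was at 12.7, 26.1, 22.1, 17.1 and 8.84 RPM against 0.462 to 2.09 RPM with a median of 1.51 (3.24 ± 0.30, adjusted p = 5.62e-07). Of their inhibitors, Timp1 was at 105, 86.7, 104, 104 and 51.6 RPM against 2.26 to 9.2 RPM with a median of 4.01 (4.21 ± 0.29, adjusted p = 3.72e-08), whereas Timp3, by far the more abundant in Sham, was at 545, 548, 283, 612 and 731 RPM against 1356 to 1657 RPM with a median of 1429 (-1.51 ± 0.20, adjusted p = 1.51e-05). Groups were apart for all 4 genes, and per kilobase the means of Timp1 and Timp3 in Sham-OVA were 102 and 115 RPM, compared with 5.25 and 314 in Sham. Of 44 genes of collagens and the elastic fibre 7 rose and 13 fell (7 and 8 after removal of the length and GC trend). Col6a5, a chain of microfibrillar collagen, was at 68.2, 61.2, 24.2, 59.7 and 47.7 RPM against 1.62 to 2.85 RPM with a median of 2.51 (4.13 ± 0.24, adjusted p = 1.04e-08), and Col14a1, a collagen on the surface of fibrils, rose by 1.42 ± 0.16 (adjusted p = 3.4e-06). The basement membrane chains Col4a3 and Col4a4, neighbours on chromosome 1 that are read in opposite directions, were at 20.6, 12.8, 1.55, 20.3 and 18.7 and 102, 86, 70.5, 102 and 88.5 RPM, against 145 to 316 RPM with a median of 267 and 206 to 306 RPM with a median of 264 (-4.39 ± 0.47 and -1.54 ± 0.14, adjusted p = 2.09e-06 and 3.77e-07).

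Ion transport and oxidase genes of the airway rose in 6 of 24 members and fell in 6, 25% each, whereas 11.2% of all genes rose and 31.4% fell. Slc26a4, which encodes pendrin, the anion exchanger of inflamed airways, was at 347, 202, 154, 298 and 269 RPM against 1.39 to 5.81 RPM with a median of 2.37 (6.35 ± 0.27, adjusted p = 8.27e-10). Duox1, an oxidase of the airway surface, was at 5.91, 8.28, 2.17, 5.58 and 2.48 RPM, with at most 0.151 RPM in Sham, and Cyba, a subunit of the phagocyte oxidase, at 489, 455, 632, 513 and 433 RPM against 47.5 to 91.6 RPM with a median of 64 (2.88 ± 0.17, adjusted p = 1.2e-08). In contrast, the epithelial sodium channel subunit Scnn1a was at 179, 239, 134, 223 and 233 RPM against 416 to 570.4 RPM with a median of 477 (-1.27 ± 0.16, adjusted p = 8.05e-06, past neither call after median-of-ratios scaling), and the chloride channel Ano1 at 34.9, 30.3, 12.7, 29.7 and 39.4 RPM against 88.2 to 132 RPM with a median of 89.6 (-1.79 ± 0.23, adjusted p = 1.06e-05). No library crossed between the groups for these 5 genes.

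The share of falling genes differed with the length and base composition of transcripts. Among the quintile of genes with the shortest transcripts (60 to 1826 bases) 15.7% fell and 23.8% rose, whereas among the quintile with the longest (5114 bases or more) 52.6% fell and 3.03% rose. The median log2 fold change went from 0.16 in the shortest quintile through -0.20, -0.48 and -0.68 to -1.07 in the longest. By GC content, 45.2% fell in the lowest quintile and 18.7% in the highest, and by level in Sham, 22.4% fell in the lowest quintile and 41.1% in the highest. After the trend with length and GC content was removed within each library, 1388 genes rose and 4480 fell. Of the genes named in this comparison, Sftpc, Muc16, Ccl17, Cxcl12, Il5, Il13ra1, Mcpt8, Trdc, Col4a4, Klf2, Junb, Rora, Acta2, Tagln and Bst2 passed neither call after that removal. The part of RNA quality in these falls was not tested. Under median-of-ratios scaling Cxcl12, Cx3cl1, Il13ra1, Tslp, Siglecf, Pparg, Trdc and Scnn1a passed neither call, and relative to the median of all genes Ncr1 and Cdh5 did not either. Counts in parentheses beside a list are those under the alternative named there, and are to be read against all genes under it. Of 16257 genes, 2795 rose and 3579 fell after median-of-ratios scaling, 3007 and 2940 after quantile normalisation, and 3115 and 2804 relative to the median. With the length and GC trend removed 1388 rose and 4480 fell of 16019, and without Sham-OVA replicate 3 1883 and 4043 of 16211. The fallers of the lists of chemokine receptors, complement, collagens, immediate early genes, Notch, surfactant and alveolar macrophages made up 28% to 35.7% of members tested, near the 31.4% of all genes. Those of type 2 cytokines, CXC, CX3C and XC chemokines, matrix proteases, airway secretory proteins, ion transport and interferon-stimulated genes made up 13.9% to 25%, below that share.

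**Figure D4:**
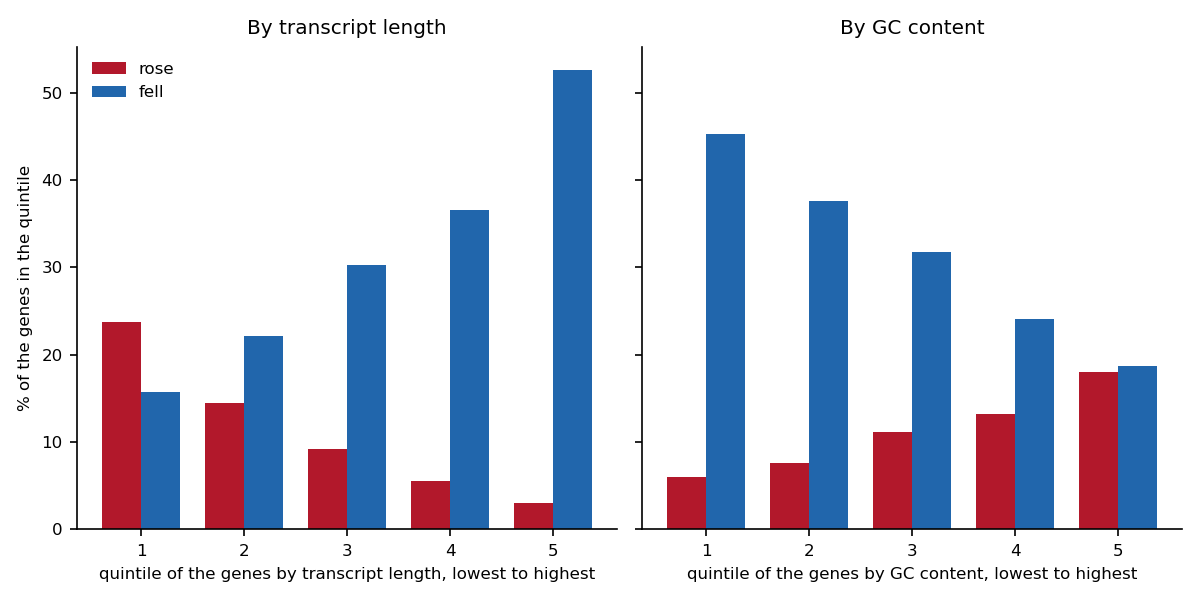
Share of genes that rose (red) and fell (blue) in quintiles of the tested genes by transcript length (left) and GC content (right), each from lowest to highest. The share that fell climbs from 15.7% to 52.6% with length and drops from 45.2% to 18.7% with GC content.

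The named DEGs with the largest falls kept a small part of their Sham level after challenge. Klf4, a transcription factor of epithelium and quiescent endothelium, was at 0.903, 1.35, 1.24, 0.319 and 0.365 RPM in Sham-OVA and 44.6 to 114 RPM with a median of 65.9 in Sham (-5.80 ± 0.27, adjusted p = 1.59e-09). Anxa11, a calcium-binding annexin, was at 0.0695, 0.226, 0, 0.558 and 0.146 RPM against 19.3 to 31.4 RPM with a median of 30.3 (-5.39 ± 0.21, adjusted p = 2.8e-10). The deubiquitinase gene Usp9x was at 1.88, 0.978, 0, 0.876 and 0.438 RPM against 24.4 to 77 RPM with a median of 54.7, and Cgn, which encodes the tight junction protein cingulin, at 0.347, 0.0752, 0, 0.319 and 0.292 RPM against 17.2 to 35.3 RPM with a median of 28. Usp9x and Cgn changed by -5.40 ± 0.36 and -5.24 ± 0.24 (adjusted p = 3.23e-08 and 1.46e-09). Srrm2, a splicing cofactor, was at 27.7, 25.6, 3.73, 22 and 19.8 RPM against 324 to 1162 RPM with a median of 599 (-5.16 ± 0.43, adjusted p = 2.21e-07). The helicase Ddx3x and the scaffold Akap12 were at most at 6.39 and 15.8 RPM in any challenged library and at least at 45.7 and 109 RPM in any control. Further such genes were Ston1, Atp7a, Hivep1, Syde2, Bahcc1, Bach1 and Foxj3, with log2 fold changes from -5.46 (Ston1) to -4.80 (Foxj3). Of all genes tested, 372 had no more than 3 reads in any Sham-OVA library and 119 had none, compared with 60 and 18 in Sham. These counts are not on equal terms, because 3 reads were worth 0.208 to 0.932 RPM in Sham-OVA and 0.151 to 0.190 RPM in Sham. Sham also had more libraries through which a gene could pass the filter. They are therefore no measure of genes switched off by challenge.

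Of 14 Krüppel-like factors 8 fell and 1 rose (6 and 2 after median-of-ratios scaling, and 6 and 0 after removal of the length and GC trend). Klf9, a target of the glucocorticoid receptor, was at 113, 124, 91.3, 154 and 211 RPM against 426 to 630.1 RPM with a median of 554 (-1.99 ± 0.19, adjusted p = 7.7e-07), and Klf13 at 25, 24.2, 3.11, 19.4 and 16 RPM against 98.9 to 303 RPM with a median of 232 (-3.79 ± 0.42, adjusted p = 2.58e-06). Klf2, the shear stress factor of endothelium, was the member that rose, at 566, 429, 1122, 604 and 519 RPM against 115 to 379 RPM with a median of 272 (1.40 ± 0.29, adjusted p = 0.000713). Immediate early genes, which cells transcribe within minutes of a stimulus, showed 1 of 35 that rose and 10 that fell (4 and 6 after median-of-ratios scaling). Junb rose (1.40 ± 0.22, adjusted p = 6.57e-05), whereas Jun, its partner in AP-1, fell (-1.60 ± 0.22, adjusted p = 1.67e-05).

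Of 23 genes of the glucocorticoid receptor and its targets 13 fell and 3 rose (10 and 3 relative to the median of all genes, and 14 and 3 after removal of the length and GC trend). The receptor gene Nr3c1, chosen after its values were seen, was at 73, 56.7, 8.7, 70.7 and 59.5 RPM against 224 to 360.1 RPM with a median of 307 (-2.77 ± 0.41, adjusted p = 3.52e-05). Its target Tsc22d3 (GILZ), which restrains inflammation, was at 42.7, 41.1, 14, 48.8 and 49.2 RPM against 106 to 154 RPM with a median of 141 (-1.85 ± 0.26, adjusted p = 2.51e-05), and Zbtb16, a target with a wide range between animals, at 0.695, 2.48, 0, 6.61 and 1.46 RPM against 19.8 to 158 RPM with a median of 71.5 (-4.89 ± 0.61, adjusted p = 7.51e-06). The metallothioneins Mt1 and Mt2, which also respond to metals and inflammation, rose by 3.27 ± 0.36 and 2.89 ± 0.33 (adjusted p = 2.38e-06 and 3.47e-06). The third member that rose was Lcn2, described above. Of 21 clock genes 9 fell and 2 rose (4 and 3 after median-of-ratios scaling, where 3579 of 16257 genes fell in all, a share near that of the clock genes). Rora, a nuclear receptor that activates the clock, was at 37.5, 36, 17.1, 43.7 and 29.1 RPM against 91.5 to 132 RPM with a median of 110.3 (-1.80 ± 0.20, adjusted p = 2.84e-06), and Bhlhe40, a repressor, at 233, 274, 441, 306 and 239 RPM against 53.5 to 164 RPM with a median of 111 (1.42 ± 0.25, adjusted p = 0.000187). The hour at which lungs were taken is not in the labels.

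Receptors and mediators of TGF-beta and BMP fell in 28 of 39 members and rose in none, the largest share of fallers among the lists with 10 or more members tested (20 of 39, with 3 that rose, after median-of-ratios scaling). Smurf2, a ubiquitin ligase that limits the pathway, was at 49.3, 45.1, 21.1, 56.7 and 50.2 RPM against 123 to 239 RPM with a median of 216 (-2.18 ± 0.24, adjusted p = 2.21e-06), and Bmp6, a ligand, at 50.3, 34.3, 12.7, 40.5 and 46.3 RPM against 135 to 288 RPM with a median of 236 (-2.71 ± 0.29, adjusted p = 2.06e-06). The receptors Tgfbr2 and Bmpr2, chosen after their values were seen, were at 166, 88.2, 19.6, 121 and 106 and 292, 240.4, 96.6, 318 and 340.3 RPM, against 288 to 474 RPM with a median of 433 and 596 to 1343 RPM with a median of 1129.9 (-2.32 ± 0.39 and -2.11 ± 0.29, adjusted p = 0.000103 and 2.05e-05). Every challenged library was below every control for these 4 genes, and replicate 3 was the lowest of each. The ligand Tgfb1 passed neither call and lay on the other side, at 167, 154, 181, 186 and 132 RPM against 63 to 107 RPM with a median of 81.6 (0.95 ± 0.15, adjusted p = 6.35e-05). Of 28 Notch pathway genes 10 fell and 1 rose (6 and 2 after median-of-ratios scaling), a share of fallers near that of all genes. Heyl, a target of Notch in vessel walls, was at 19.3, 22.6, 11.8, 19.4 and 15.8 RPM against 44.9 to 86.3 RPM with a median of 76.9 (-2.001 ± 0.20, adjusted p = 1.22e-06).

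Endothelial receptors and transcription factors fell in 25 of 44 members and rose in 2 (17 and 3 relative to the median of all genes). Vegfa, the growth factor that alveolar type 1 cells supply to capillaries, was at 268, 212, 131, 265 and 298 RPM in Sham-OVA and 1207 to 1874 RPM with a median of 1298 in Sham (-2.60 ± 0.20, adjusted p = 1.02e-07). Ptprb, a phosphatase of endothelial junctions, was at 192, 158, 78.6, 198 and 207 RPM against 548 to 1469 RPM with a median of 1121 (-2.66 ± 0.28, adjusted p = 1.56e-06), and the transcription factor Erg at 38.8, 26.7, 19, 34.4 and 39.8 RPM against 85 to 148 RPM with a median of 123 (-1.92 ± 0.20, adjusted p = 1.62e-06). Cdh5, the cadherin of these junctions, fell by 1.49 on the log2 scale (adjusted p = 0.000127), with every challenged library below every control, but passed neither call relative to the median of all genes. Emcn, a surface mucin of capillaries, went the other way, at 90.0, 68.4, 87.9, 88.2 and 91.9 RPM against 25.3 to 51.4 RPM with a median of 39.5 (1.13 ± 0.17, adjusted p = 4.2e-05). Cldn5, a tight junction gene of the same cells, passed neither call and was at 1155, 998, 1412, 1469.7 and 1252 RPM against 583 to 1378 RPM with a median of 900.4.

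Many genes that act on chromatin and RNA fell on the deposited scale. Of 64 histone and DNA modifying enzymes 30 fell and 1 rose (19 and 2 after removal of the length and GC trend). After that removal 4480 of 16019 genes fell in all, so the share of these enzymes that fell was near that of all genes. The demethylases Kdm3b and Kdm2b were at 9.24, 7.75, 2.49, 7.89 and 5.26 and 0.625, 0.451, 0, 0.398 and 0.73 RPM, against 42.7 to 77.3 RPM with a median of 61.8 and 5.5 to 12.7 RPM with a median of 9.3 (-3.24 ± 0.26 and -3.40 ± 0.25, adjusted p = 1.47e-07 and 8.29e-08), and Tet3, which oxidises methylated cytosine, at 26.6, 24.7, 14.6, 29.7 and 26.4 RPM against 88.4 to 146 RPM with a median of 112 (-2.26 ± 0.18, adjusted p = 1.79e-07). Hdac9, a deacetylase, was the member that rose (1.88 ± 0.23, adjusted p = 6.87e-06). Of 24 genes of the complexes that shorten poly(A) tails 14 fell and 0 rose (10 and 0 after removal of the length and GC trend). Pabpc1, the poly(A)-binding protein, was at 2.36, 1.81, 4.66, 1.99 and 1.17 RPM against 27.7 to 64.1 RPM with a median of 47 (-4.15 ± 0.26, adjusted p = 2.14e-08), and Cnot3, a subunit of the CCR4-NOT complex, at 1.25, 2.26, 3.11, 1.75 and 1.24 RPM against 9.09 to 15.5 RPM with a median of 12.5 (-2.48 ± 0.22, adjusted p = 3.93e-07). Pabpc1 and other genes with near-identical copies elsewhere in the genome may have lost reads in counting. Of 41 ubiquitin ligases and deubiquitinases with long transcripts 22 fell and 0 rose, but 8 fell and 1 rose after removal of the length and GC trend, a smaller share of fallers than that of all genes. Wwp1, a ligase of the same family as Smurf2, was at 33, 28.7, 7.77, 35.2 and 31.4 RPM against 104 to 136 RPM with a median of 122 (-2.31 ± 0.29, adjusted p = 9.27e-06). Of 311 zinc finger genes named Zfp 164 fell and 7 rose (94 and 11 after quantile normalisation). Zfp91 was at 41.6, 27.5, 27.7, 30.5 and 29.5 RPM against 118 to 164 RPM with a median of 149 (-2.21 ± 0.13, adjusted p = 1.41e-08).

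Genes of resident epithelium and mesenchyme split between markers. Of 28 genes of surfactant and the alveolar epithelium 9 fell and 3 rose (7 and 5 after median-of-ratios scaling, and 8 and 0 after removal of the length and GC trend). Sftpc, a surfactant protein of type 2 cells, rose and was at 19549.8, 20075, 25078, 22073 and 24201 RPM against 6489.6 to 14557 RPM with a median of 9037 (1.19 ± 0.28, adjusted p = 0.00149). It passed neither call after quantile normalisation, with no filter on low values or after removal of the length and GC trend. Clic5 and Akap5, genes of type 1 cells, fell and were at 251, 181, 71.1, 225 and 256 and 172, 116, 53.4, 145 and 157 RPM, against 819 to 1618 RPM with a median of 1368 and 404 to 727 RPM with a median of 604 (-2.83 ± 0.28 and -2.30 ± 0.25, adjusted p = 1.18e-06 and 2.68e-06). Ager, the receptor that defines those cells, passed neither call, at 2113, 2222, 2214, 2485 and 2421 RPM against 1242 to 2029.9 RPM with a median of 1535 (0.53 ± 0.17, adjusted p = 0.0117). Of 36 genes of motile cilia 15 fell and 1 rose (9 and 1 after median-of-ratios scaling). Under that scaling 3579 of 16257 genes fell in all, so the share of cilium genes that fell was near that of all genes. Sec14l3, a lipid-binding protein of ciliated cells, was at 95.3, 85.7, 50.6, 107 and 124 RPM against 541 to 915 RPM with a median of 781 (-3.10 ± 0.20, adjusted p = 2.48e-08), and Ccdc39, an axonemal ruler protein, fell by 2.06 on the log2 scale (adjusted p = 3.05e-05). Of 29 genes of smooth muscle and fibroblasts 16 fell and 2 rose (9 and 4 relative to the median of all genes). The contractile genes Acta2 and Tagln were at 225, 351, 325, 298 and 266 and 418, 626, 1061, 549.6 and 566 RPM, against 113 to 178 RPM with a median of 132 and 204 to 297 RPM with a median of 259 (1.09 ± 0.15 and 1.30 ± 0.20, adjusted p = 1.9e-05 and 4.8e-05), whereas Npnt and Itga8, a matrix ligand and its integrin, changed by -2.75 ± 0.31 and -3.16 ± 0.39 (adjusted p = 3.05e-06 and 6.87e-06).

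Of 80 nuclear genes of the respiratory chain 29 rose and 7 fell, but 11 rose and 9 fell after removal of the length and GC trend and 42 and 2 after quantile normalisation. Ndufa2, of complex I, was at 166, 172, 286, 191 and 179.7 RPM against 18.9 to 49.1 RPM with a median of 32.2 (2.63 ± 0.22, adjusted p = 2.2e-07). Of 77 cytosolic ribosomal protein genes 6 rose and 18 fell, but 16 rose and 6 fell after quantile normalisation and 2 rose and 33 fell after removal of the length and GC trend, and many of them share reads with processed copies, so their direction is uncertain. Of 43 proteasome subunits 13 rose and 4 fell (17 and 2 after quantile normalisation, and 12 and 7 after removal of the length and GC trend). Psmb8 and Psmb9, the subunits of the immunoproteasome that interferon induces, rose by 1.96 ± 0.16 and 2.20 ± 0.15 (adjusted p = 1.75e-07 and 4.58e-08). Of 36 interferon-stimulated genes 6 rose and 5 fell (6 and 3 after quantile normalisation, and 3 and 5 after removal of the length and GC trend). The restriction factor Bst2 was at 161, 154, 123, 192 and 123 RPM against 36.7 to 67.5 RPM with a median of 54.4 (1.54 ± 0.18, adjusted p = 3.76e-06), and Ifit2 at 10.01, 5.19, 0.621, 11.6 and 8.33 RPM against 35.4 to 63.6 RPM with a median of 55.5 (-3.17 ± 0.46, adjusted p = 2.91e-05). Of 1130 unnamed Gm models 111 rose and 434 fell (207 and 207 after quantile normalisation), and of 696 RIKEN models 51 rose and 217 fell (109 and 80).

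Genes of other tissues that the samples could hold differed between libraries. Cardiac muscle genes, of which 0 of 17 rose and 7 fell (11 without Sham-OVA replicate 3), summed to 155 to 409 RPM in Sham and 86.9 to 705 RPM in Sham-OVA, where replicate 3 was the highest. Myh6, a cardiac myosin, was at 0.208, 0, 0.932, 0.0797 and 0.073 RPM against 2.43 to 59 RPM with a median of 38.9 (-5.27 ± 0.60, adjusted p = 3.4e-06). Red blood cell genes summed to 583 to 2198 RPM in Sham and 1201 to 4869.8 RPM in Sham-OVA, and 2 of 6 rose. Of 16 genes of adipose tissue 4 fell, of 10 of skeletal muscle 2 rose and 3 fell (5 and 1 after quantile normalisation), and of 6 of thymus and lymph node 1 fell. The part of these tissues in the other results was not tested.

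**Figure D5:**
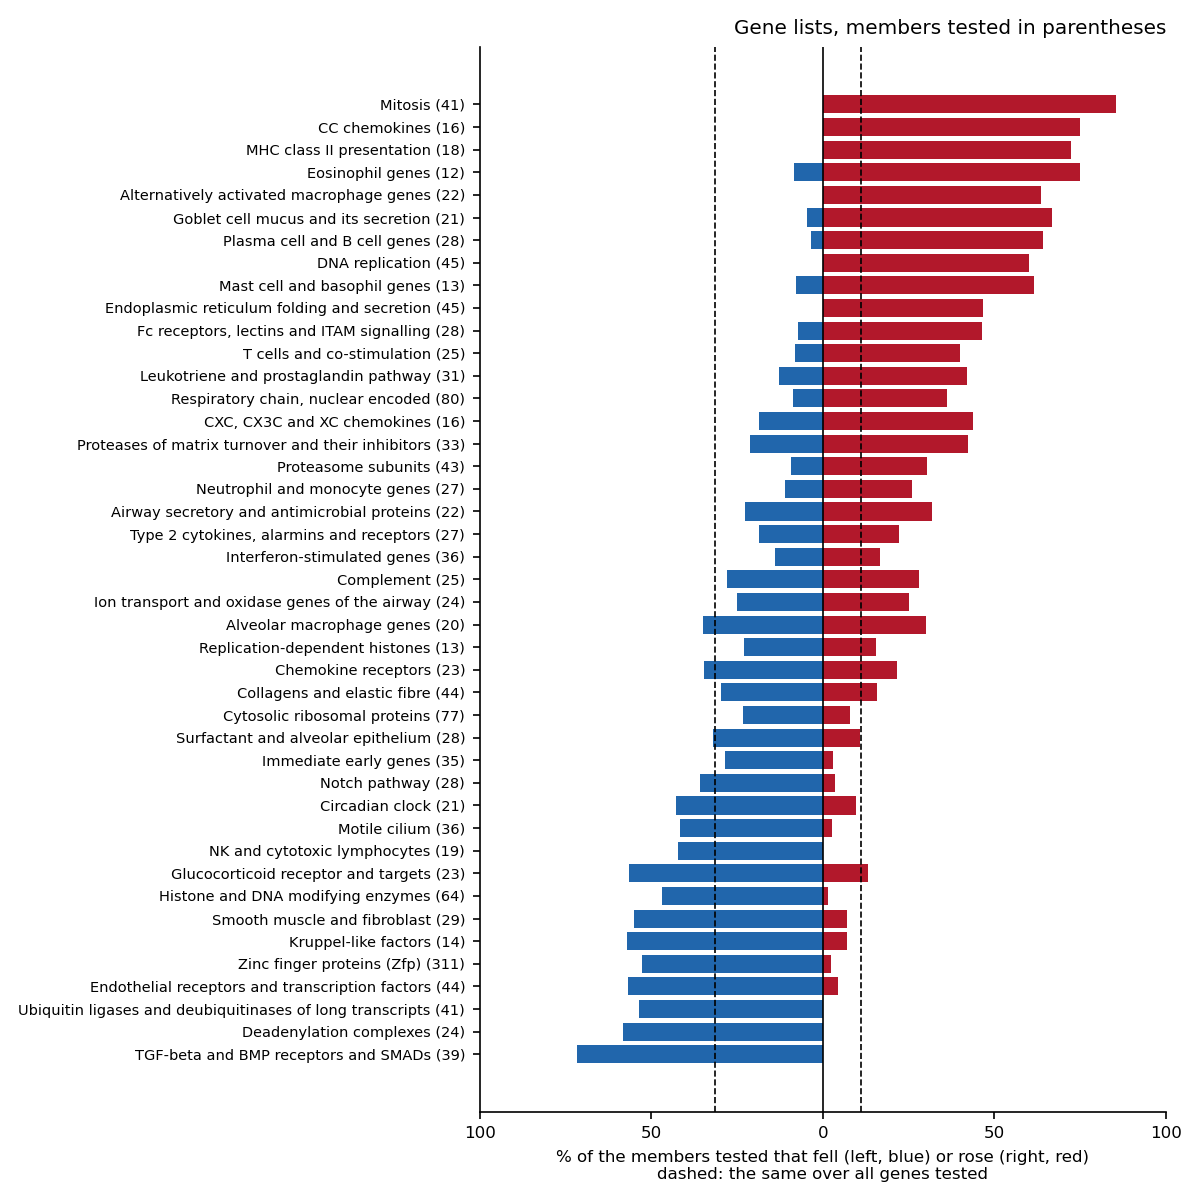
Share of the tested members of each gene list that rose (red, right) or fell (blue, left) in Sham-OVA, for lists with 10 or more members tested, leaving out other tissues and unnamed gene models, ordered by the difference. Dashed lines mark the shares of all genes tested, 11.2% risen and 31.4% fallen; mitosis, CC chemokines, MHC class II and eosinophil genes lie at the top and TGF-beta and BMP receptors and SMADs at the bottom.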

How the data were processed

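Lung RNA-Seq libraries were made by the authors with a stranded mRNA preparation, and reads were trimmed, aligned with Bowtie2 to mm10 (GRCm38) and counted per gene in SeqMonk. Bowtie2 does not split reads over introns. The deposited values are RPM, the reads of each gene scaled by the authors to 1000000 reads of the library, with no correction for length although the table is named for RPKM. In each library, 100% of values came out as whole reads (within 0.1 reads). Tests designed for RPKM were therefore run on RPM, and whole reads were recovered for the count tests.

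Genes that reached 0.5 RPM in 4 or more of the 12 libraries entered limma (3.58.1, R 4.3.3, trend on) on log2(RPM + 0.5), with Sham-OVA and Sham as groups, no covariate and Benjamini-Hochberg adjustment over 16257 genes. Alternatives were pseudocounts of 0.1 and 1, other filters, scalings and call thresholds, thinning to 3218603 reads, removal of the length and GC trend, all 4 groups in 1 fit, robust estimation, array weights, replicate blocks, each library left out, and edgeR (4.0.16) and DESeq2 (1.42.0) on recovered reads. Scripts were tested on simulated data. Transcript lengths, GC content (for 98.5% of genes tested) and gene positions came from an annotation of GRCm38, and promoter windows from RefSeq, GRCm38.p6.

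Genes named were the 15 named DEGs with the largest rise and fall without overlap of the groups, up to 4 risers, 4 fallers and 3 others of each list, the 10 largest gains and losses of mean RPM, label checks, and paralogs of mucus, RELM, chitinase-like and CC chemokine genes. Genes outside that rule are named as chosen after their values were seen, as were Epx and Syvn1. A few genes are not reported here. Members, lists and rule were chosen with earlier results of these data known, so their counts are descriptions. Some genes are in more than 1 list, so the counts of lists are not independent. The neutrophil and monocyte list and the alveolar macrophage list, for example, have the same member with the highest log2 fold change (4.74). Intervals for counting error were not computed, and 1 read sets the smallest step of each value. Groups were taken from the treatment labels.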

Additional observations from a re-analysis of the deposited data

Results flagged for a closer look

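For 215 genes given with values above or further below, each group was searched for a library with a large gap to its nearest neighbour. The gap was set beside the whole range of the group on the log2(RPM + 0.5) scale, by Dixon's 95% critical values. Of 430 groups, 66 held such a library. About 1 in 20 is the chance rate for independent, normally spread values. These genes share libraries and some were at a few reads, so that rate does not apply here. Values in parentheses are RPM in the library named.

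Sham-OVA replicate 3, the library with the fewest reads, was that library in 35 groups. It lay below the other challenged libraries for Lyz1 (0.932), Lyz2 (19), Cxcl9 (0.932), Cxcl12 (83.6), Cx3cl1 (19.6), Ackr2 (6.52), Tslp (0), Kit (19.9), Clec10a (12.4), Trdc (0.932), Sdc1 (9.32) and Col4a3 (1.55). Further genes for which it was the lowest were Ano1 (12.7), Srrm2 (3.73), Klf13 (3.11), Jun (98.5), Nr3c1 (8.7), Tsc22d3 (14), Smurf2 (21.1), Bmp6 (12.7), Bmpr2 (96.6), Ptprb (78.6), Tet3 (14.6) and Wwp1 (7.77). It was the lowest as well for Clic5 (71.1), Npnt (53.8), Fmo2 (16.5) and Epas1 (609). It lay above the other challenged libraries for Bpifb1 (1701), Lgmn (1129), Edem1 (1517), Ndufa2 (286), Ctsd (3412), mt-Nd6 (111) and Rplp0 (36.7).

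Sham replicate 3 stood apart in 12 groups, as the lowest of Sham for Ccl11 (0.868), Cxcl12 (258), Anxa11 (19.3), Ddx3x (45.7), Klf13 (98.9), Tgfbr2 (288), Pabpc1 (27.7), Clic5 (819), Sec14l3 (541) and Myh6 (2.43) and the highest for mt-Nd2 (3477) and mt-Nd6 (17.5). Sham replicate 6 was the highest of Sham for Clca1 (6.16), Retnla (94.1), Retnlb (0.174), Rnase2a (2.96), Jchain (145) and Ano1 (132), of which 4 were among the largest rises after challenge: Clca1, Retnla, Rnase2a and Jchain. Sham replicate 1 stood apart for the sex-linked genes Xist (0.289), Eif2s3y (54) and Ddx3y (123). Sham replicate 4 was the highest of its group for Fcer1g (20.1) and Pla2g7 (25.9). Sham replicate 7 was the highest of its group for Mcpt2 (0.151), Duox1 (0.151) and Vegfa (1874). Sham-OVA replicate 1 was the highest of its group for Zfp91 (41.6). Sham-OVA replicate 2 was the lowest of its group for Emcn (68.4). Sham-OVA replicate 4 was the highest of its group for Mcpt8 (68). Sham-OVA replicate 5 was the lowest of its group for Timp1 (51.6) and Ston1 (0.146). The cause of these values was not tested.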

How the results depend on the processing

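Counts of higher and lower DEGs were 334 and 422 as reported, 213 and 236 with no filter on low values, 647 and 494 with median-of-ratios scaling, 1065 and 800 with quantile normalisation, 780 and 955 with all 4 groups of the series in 1 fit, 1472 and 2998 with array weights, and 942 and 445 by edgeR and 2348 and 2516 by DESeq2 on the whole reads recovered from the RPM values. Genes that rose and fell numbered 1819 and 5110 as reported, 3383 and 7814 with no fold change threshold, 2795 and 3579 with median-of-ratios scaling, 3007 and 2940 with quantile normalisation, 3115 and 2804 relative to the median of all genes, 3173 and 3752 by DESeq2 and 3437 and 3404 by edgeR. Leaving out each library in turn gave 128 to 960 higher and 146 to 2118 lower DEGs, 1701 to 1914 risers and 4043 to 5548 fallers, with both DEG maxima and the lowest number of fallers without Sham-OVA replicate 3. The cause of these differences was not tested. The pseudocounts 0.1 and 1, a filter on the mean, removal of the length and GC trend, 1 depth for all libraries and robust estimation kept all 4 counts within 1.5 times of those reported.

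Among genes named, directions turned for genes that passed neither call. Stat6 was at 0.22 (log2 fold change) with median-of-ratios scaling, 0.085 with quantile normalisation, 0.33 relative to the median of all genes, 0.23 by DESeq2 and 0.32 by edgeR. Mki67 was at 0.019, 0.22, 0.23, 0.68 and 0.84 under the same alternatives, at 0.55 with the length and GC trend removed, at 0.45 with array weights and at 0.66 without Sham-OVA replicate 3, and from -0.73 to 0.66 over all libraries left out in turn. With the length and GC trend removed, Retn was at -0.17, Ccl5 at -0.63, Cldn5 at -0.37 and Ager at -0.12, and with array weights Retn was at -0.066. Levels under 3 reads, up to 0.932 RPM in Sham-OVA replicate 3, could not be told from 0.

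The groups share replicate numbers in their titles and in their library names, and nothing in the labels says that a number marks a shared animal, litter or day. Deviations from the group means of same-numbered samples correlated at -0.07 to 0.12 by title number and at -0.06 to 0.07 by library number, and 1 of 5 title numbers and 0 of 5 library numbers correlated best with their own, so the numbers were not taken to pair the samples. With a replicate block by title number, limma called 5 genes as higher and 0 as lower DEGs, with 1742 risers, 5045 fallers and 10603 genes at an unadjusted p under 0.05. With a block by library number it called 3 and 0 DEGs, with 1743 risers, 4948 fallers and 10266 such genes, against 11627 without a block.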

Other observations

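Among the genes that lost most RPM after challenge, leaving out those described above, were 2 long non-coding RNAs of the nucleus and several genes of resident lung cells. Neat1, the scaffold RNA of paraspeckles, was at 849, 802, 472, 937 and 1027 RPM in Sham-OVA replicates 1 to 5 and 1562 to 4958 RPM with a median of 2764 in Sham (-1.82 ± 0.30, adjusted p = 8.5e-05 by limma). Malat1, the RNA of nuclear speckles, was at 316, 219.7, 276, 331 and 231 RPM against 682 to 3876 RPM with a median of 1319 (-2.36 ± 0.35, adjusted p = 3.4e-05). Every challenged library was below every control for Neat1 and Malat1. Fmo2, a flavin mono-oxygenase of the lung, was at 101, 83.1, 16.5, 102 and 129.7 RPM against 981 to 1893 RPM with a median of 1393 (-4.27 ± 0.40, adjusted p = 5.66e-07), Tns1, a focal adhesion protein, at 750.3, 859.7, 576, 922 and 863 RPM against 1896 to 2691 RPM with a median of 2392, and Epas1, the hypoxia-inducible factor of lung endothelium, at 1443, 1351, 609, 1669.5 and 1727 RPM against 1933 to 3269.8 RPM with a median of 2962. The log2 fold change of Epas1 was -0.81, past neither call, without Sham-OVA replicate 3. Neat1 and Epas1 passed neither call after the trend with length and GC content was removed. Among the gains, the lysosomal protease gene Ctsd was at 1733, 1776, 3412, 1961 and 1864 RPM against 364 to 936 RPM with a median of 599 (1.82 ± 0.24, adjusted p = 1.5e-05).

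Members of the same complex differed in direction. Of 13 protein-coding genes of the mitochondrial genome, 7 were tested, and the other 6, mt-Atp6, mt-Atp8, mt-Co2, mt-Co3, mt-Nd3 and mt-Nd4l, were listed at 0 in all 12 libraries. Every cell uses these genes, so a listed 0 cannot be read as their level. The complex I genes mt-Nd2 and mt-Nd6, read from opposite strands, were at 166, 151, 258, 186 and 195 and 21.5, 22.6, 111, 26.9 and 31.6 RPM in Sham-OVA, against 1026 to 3477 RPM with a median of 1260.5 and 5.26 to 17.5 RPM with a median of 6.34 (-2.91 ± 0.26 and 2.13 ± 0.39, adjusted p = 4.67e-07 and 0.000206). Of the ribosomal proteins, Rplp0 was at 18.2, 17.2, 36.7, 16.6 and 20.9 RPM against 1.51 to 5.21 RPM with a median of 2.9 (2.73 ± 0.27, adjusted p = 9.42e-07) and Rpl10 at 5.49, 3.39, 1.55, 2.79 and 3.07 RPM against 11.7 to 30.4 RPM with a median of 19.3 (-2.45 ± 0.29, adjusted p = 5.19e-06). Both ribosomal genes and the mitochondrial genes have near-identical copies elsewhere in the mouse genome, so their counts are uncertain.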
